A study of Mus musculus with 10 samples.

Results

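Autophagy genes were taken as 47 named mouse genes that build the autophagosome, load its cargo or regulate the pathway. Of these, 45 were measured among the 22180 genes that the arrays represent by a probe set with exactly 1 gene symbol, each by its brightest probe set. Bnip3l, a mitophagy receptor gene, had only a probe set that carries another symbol as well, and no probe set with the symbol Optn, a cargo receptor gene, was used here. Each of the 10 Affymetrix arrays held RNA of bone marrow plasma cells from mice of the B6.BLIMP1 +/GFP background, in which GFP marks cells that express Blimp1, and the sort kept Blimp1-positive cells that lacked B220. Untreated mice gave 5 arrays, and treatment with rapamycin, which inhibits mTOR complex 1, gave 5. Both groups carry the reporter allele, and dose, duration, age and sex are not given in the sources used here. Signals are log2 values, a log2 difference of 0.5 being a fold of 1.41, and differences are rapamycin minus untreated.

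Autophagy is the enclosure of cytoplasm, organelles or protein aggregates in a double membrane that then fuses with the lysosome. When nutrients are plentiful, mTOR complex 1 phosphorylates the ULK1 kinase complex and keeps it inactive, and it also holds the transcription factor TFEB in the cytoplasm, so that the pathway is controlled through proteins as well as through transcription. In mouse plasma cells, autophagy is known to limit the size of the endoplasmic reticulum and to sustain long-lived cells of the bone marrow.

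The arrays carried all 8 plasma cell markers examined above the array medians of 4.92 to 4.99. Mean Xist signal was 3.83 with no treatment and 9.24 with rapamycin, and the Y-linked gene Eif2s3y was at 8.03 and 3.84, so that for each difference given here the drug and the sex of the mice cannot be told apart. Neutrophil markers had positive differences for 12 of 12 members, of which 5 had an unadjusted p under 0.05 and 0 passed the adjusted test. Their summed signal ran from 10.23 to 11.04 in untreated and from 10.67 to 11.39 in rapamycin arrays. The eosinophil list held 1 called gene among 7 measured, Prg2, against 0.153% of all genes. Prg2 had a difference of 0.42, and its groups did not overlap, as for 1.48% of all genes in this direction. Prg2 carries nearly all of the list's summed signal (from 12.30 to 12.80 in untreated and from 12.90 to 13.05 in rapamycin arrays). Of the list's other 6 members 5 had positive and 1 a negative difference, and none had an unadjusted p under 0.05. Several were dim, with 3 of the 7 measured below the array median and 2 of those also below the lower quartile. Monocyte and macrophage markers had negative differences for 5 of 7 members, with 0 called, and Cd68, at -0.33, had an unadjusted p under 0.05. Their summed signal spanned 8.98 to 9.36 without the drug and 8.76 to 9.05 with it. Erythroid markers had negative differences for 4 of 4 measured members, with 0 called and none at an unadjusted p under 0.05, and a summed signal of 6.926 to 7.070 without the drug and 6.748 to 6.996 with it. Plasma cell markers had positive differences for 8 of 8 members, with 0 called. Of these, 2 had an unadjusted p under 0.05, Prdm1 at 0.41 and Mzb1 at 0.11. For both genes the groups did not overlap, as for 1.48% of all genes in this direction. B cell markers had 4 positive and 3 negative differences among 7 measured, with 0 called. The unadjusted p was under 0.05 for Ebf1, at 0.36, Cd22, at -0.44, and Pax5, at -0.18. T and NK cell markers had 3 positive and 3 negative differences, with 0 called and none at an unadjusted p under 0.05. The part of these lists in the autophagy results was not tested. In RNA from a sorted pool, fewer cells of a type and less RNA per cell cannot be told apart.

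The comparison asks whether autophagy transcripts of plasma cells differ when mTOR is inhibited in the mouse. None of the 45 autophagy genes passed the test in either direction. In limma, 0 were called at a Benjamini-Hochberg adjusted p under 0.05, against 0.153% of all genes, and the smallest adjusted p was 0.372. Atg14 and Vmp1 were higher with an unadjusted p under 0.05, which makes 2 of 45 against 6.13% of all genes. Sqstm1 was lower, which makes 1 of 45 against 3.26% of all genes, and both directions together covered 9.39% of all genes. On no autophagy gene were the 5 untreated values apart from the 5 rapamycin values, and the groups did not overlap for 2.06% of all genes. At shares as low as 0.153% and 2.06%, a count of 0 among 45 does not set these genes apart from other genes.

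The differences of the autophagy genes ranged from -0.25 (Sqstm1) to 0.32 (Vmp1), with 20 positive and 25 negative, a median of -0.01 over the 45 genes and a median of 0.01 over all genes tested. Sizes without sign had a median of 0.08, as over all genes. The 95% interval of the difference lay wholly between -0.5 and 0.5 for 44 of the 45, against 93.2% of all genes, a band chosen after the values were seen. Vmp1 was the exception, and the upper bound of its interval, 0.62 or 1.54-fold, was the farthest from zero of any autophagy gene. Spread between mice of a group was like that of other genes, with a median SD of 0.15 for both.

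**Figure D1:**
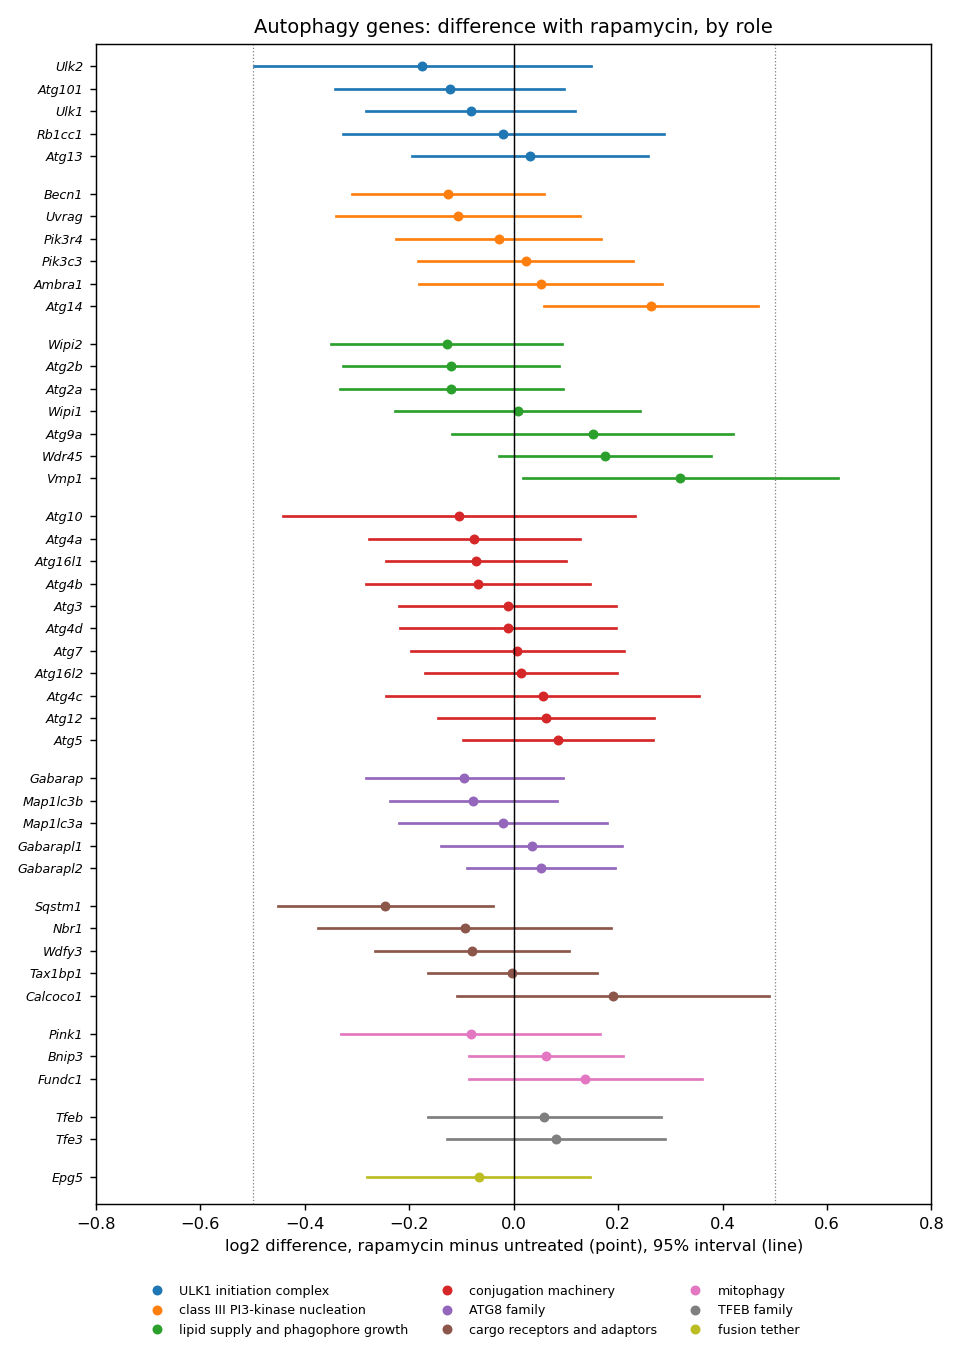
Log2 difference, rapamycin minus untreated, on the horizontal axis for the 45 measured autophagy genes, coloured by role; points are the differences from limma, lines their 95% intervals, and dotted lines mark -0.5 and 0.5. The intervals of Atg14 and Vmp1 lie above zero and that of Sqstm1 below it, only the interval of Vmp1 passes a dotted line, and 0 of the 45 were called after adjustment over all genes.

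**Figure D2:**
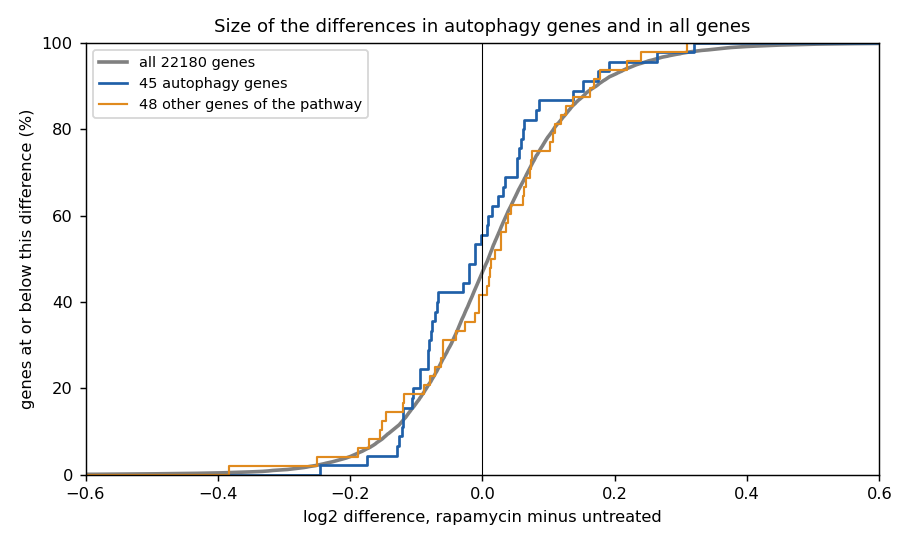
Share of genes, in percent, at or below each log2 difference (rapamycin minus untreated), for all 22180 genes, the 45 autophagy genes and 48 other genes of the pathway. The 3 curves run close together, and the autophagy genes end at -0.25 and 0.32.

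TFEB and TFE3 are the transcription factors that switch on lysosomal and autophagy genes when mTOR complex 1 is inactive. Tfeb signal was 5.79, 5.84, 5.44, 5.76 and 5.89 in untreated replicates 1 to 5, and 5.92, 5.72, 5.98, 5.80 and 5.58 in rapamycin replicates 1 to 5. The groups overlapped over most of their range, with untreated replicate 3 the lowest. The Tfeb difference was 0.06 (SE 0.11, 95% interval from -0.17 to 0.28, adjusted p = 0.925 in limma). Tfe3 was at 7.25 ± 0.15 and 7.33 ± 0.14 (SD, n = 5 each), a difference of 0.08. A change in where these proteins reside in the cell would not appear in their transcript level.

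TFEB binds a palindrome around CACGTG, of which GTCACGTG is a part. Promoter windows from 250 bases before to 50 bases after the gene start, taken from RefSeq on GRCm38.p6, were found for 38 of the 47 genes (47 windows). On either strand, GTCACGTG stood in 3 windows, those of Atg14, Atg3 and Atg7, and in 2.25% of the 32851 windows of all genes. The core CACGTG, which every GTCACGTG contains, stood in 5 windows, those 3 and the windows of Atg5 and Bnip3, and in 7.15% of all windows. The sequences are shown because these are the autophagy genes whose promoter window holds GTCACGTG or only its core CACGTG. Both are parts of the palindrome, and not the whole of it. The first 3 are whole windows with GTCACGTG or its reverse complement in capitals, and the last 2 are 30 bases around CACGTG, in capitals, each read 5′ to 3′ on the gene's strand.
Atg14, chr14:47568385-47568684, minus strand: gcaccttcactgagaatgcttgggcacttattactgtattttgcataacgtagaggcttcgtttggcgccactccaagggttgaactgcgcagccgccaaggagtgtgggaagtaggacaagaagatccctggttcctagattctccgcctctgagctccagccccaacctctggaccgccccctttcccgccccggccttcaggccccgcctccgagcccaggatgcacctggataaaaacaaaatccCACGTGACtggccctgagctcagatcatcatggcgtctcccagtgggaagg
Atg3, chr16:45158579-45158878, plus strand: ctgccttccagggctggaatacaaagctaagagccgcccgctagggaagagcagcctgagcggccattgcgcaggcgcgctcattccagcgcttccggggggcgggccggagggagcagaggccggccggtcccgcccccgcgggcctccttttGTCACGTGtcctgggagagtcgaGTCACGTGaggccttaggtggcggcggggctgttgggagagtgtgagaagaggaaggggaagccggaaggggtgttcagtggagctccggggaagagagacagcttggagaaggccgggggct
Atg7, chr6:114670846-114671145, plus strand: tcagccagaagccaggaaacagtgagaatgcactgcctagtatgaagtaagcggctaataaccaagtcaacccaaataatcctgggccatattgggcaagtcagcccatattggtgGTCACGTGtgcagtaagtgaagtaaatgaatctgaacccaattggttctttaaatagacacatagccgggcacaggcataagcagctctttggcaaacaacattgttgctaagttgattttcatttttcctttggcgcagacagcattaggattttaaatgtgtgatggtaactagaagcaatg
Atg5, chr10:44268313-44268342, plus strand: cggagcgcttgcCACGTGgtcttggtgacg
Bnip3, chr7:138909597-138909626, minus strand: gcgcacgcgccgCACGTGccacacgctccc

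Of these 5 genes 0 were called, and 4 differences were positive and 1 negative. The differences were 0.26 for Atg14, -0.01 for Atg3, 0.01 for Atg7, 0.08 for Atg5 and 0.06 for Bnip3. Atg3, whose window holds GTCACGTG at 96 and again at 73 bases before the gene start, had one of the smallest differences measured. The median over the 5 genes was 0.06, and over the 32 measured autophagy genes whose window lacks CACGTG it was -0.02. For the longer GTCACGTG the medians were closer together, at 0.007 over the 3 genes with it and -0.007 over the 34 without it. A match of letters is not a binding site, and no binding was measured here.

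The ULK1 complex starts autophagosome formation and is the direct target of mTOR complex 1. Of its 5 measured genes, 0 were called, 4 had negative differences and 1 a positive one. Ulk1, the kinase itself, was at 7.61, 7.42, 7.35, 7.71 and 7.52 in untreated replicates 1 to 5, and at 7.50, 7.22, 7.54, 7.47 and 7.46 in rapamycin replicates 1 to 5. All rapamycin values but that of replicate 2 lay within the untreated range. The Ulk1 difference was -0.08 (SE 0.09, 95% interval from -0.28 to 0.12, adjusted p = 0.863 in limma). Ulk2, a related kinase, had a difference of -0.17 and a wide untreated spread, 6.94 ± 0.35 (SD, n = 5), with untreated replicate 1 at 6.43 and replicate 3 at 7.36. It was -0.30 without untreated replicate 1, where its unadjusted p was under 0.05, and it was -0.07 without untreated replicate 3 and -0.09 without rapamycin replicate 5. Differences of the regulatory subunits were 0.03 for Atg13, -0.12 for Atg101 and -0.02 for Rb1cc1, the scaffold also called FIP200.

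The class III phosphatidylinositol 3-kinase complex marks the membrane on which the autophagosome grows. Of 6 measured genes 0 were called, and 3 had positive and 3 negative differences. Atg14, the subunit that directs the kinase to autophagy, was at 5.55, 5.30, 5.48, 5.27 and 5.64 in untreated replicates 1 to 5, and at 5.67, 5.87, 5.55, 5.76 and 5.71 in rapamycin replicates 1 to 5. Of the rapamycin values 4 lay above the highest untreated one, and replicate 3 lay below 2 untreated arrays. The Atg14 difference was 0.26 (SE 0.10, 95% interval from 0.06 to 0.47), with the smallest p of the autophagy genes, 0.015 unadjusted and 0.372 adjusted in limma. Its unadjusted p stayed under 0.05 without any single array and in each of the other alternatives tried.

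Becn1, the Beclin 1 subunit shared by all forms of the kinase complex, was at 6.58, 6.41, 6.52, 6.39 and 6.70 in untreated replicates 1 to 5. In rapamycin replicates 1 to 5 it was at 6.32, 6.35, 6.43, 6.45 and 6.41. All 5 rapamycin values lay below the untreated mean of 6.52, and they were closer together, with an SD of 0.06 against 0.13, but 3 of them lay within the untreated range. The Becn1 difference was -0.13 (SE 0.09, adjusted p = 0.722 in limma). A further probe set carries the symbol of Becn1 together with another symbol, and was not used. The other subunits had differences of 0.02 for the catalytic Pik3c3, -0.03 for Pik3r4, -0.11 for Uvrag, which takes the place of Atg14 in the endosomal form, and 0.05 for Ambra1, a Beclin 1 partner.

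Proteins that feed lipid to the growing membrane gave 7 measured genes, with 0 called, 4 positive and 3 negative. Vmp1, a membrane protein of the endoplasmic reticulum that moves lipids, was at 3.33, 3.19, 3.59, 3.60 and 3.53 in untreated replicates 1 to 5, and at 3.45, 3.69, 4.39, 3.58 and 3.73 in rapamycin replicates 1 to 5. Rapamycin replicate 3 stood well above the other arrays, and both group means, 3.45 and 3.77, lay below the lower quartiles of the arrays, 3.81 to 3.87, so that this probe set was dim. The Vmp1 difference of 0.32 (SE 0.14, adjusted p = 0.501 in limma) became 0.16 without rapamycin replicate 3. A further probe set carries the symbol of Vmp1 together with that of another gene, and was not used.

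The remaining genes of membrane growth had groups that overlapped. Wdr45, a phosphoinositide-binding WIPI protein gene on the X chromosome, had 4 of 5 rapamycin values above the highest untreated value. Its difference was 0.17 (SE 0.10, adjusted p = 0.622 in limma), and untreated replicate 3, at 8.20, was the lowest array. Without that array the Wdr45 difference was 0.083, and without untreated replicate 1 it was 0.21, with an unadjusted p under 0.05. Atg9a, the lipid scramblase of Golgi-derived vesicles, had a difference of 0.15, with 3 rapamycin arrays above and 2 within the untreated range. The lipid transfer proteins Atg2a and Atg2b both had -0.12, and the WIPI genes Wipi1 and Wipi2 had 0.01 and -0.13.

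**Figure D3:**
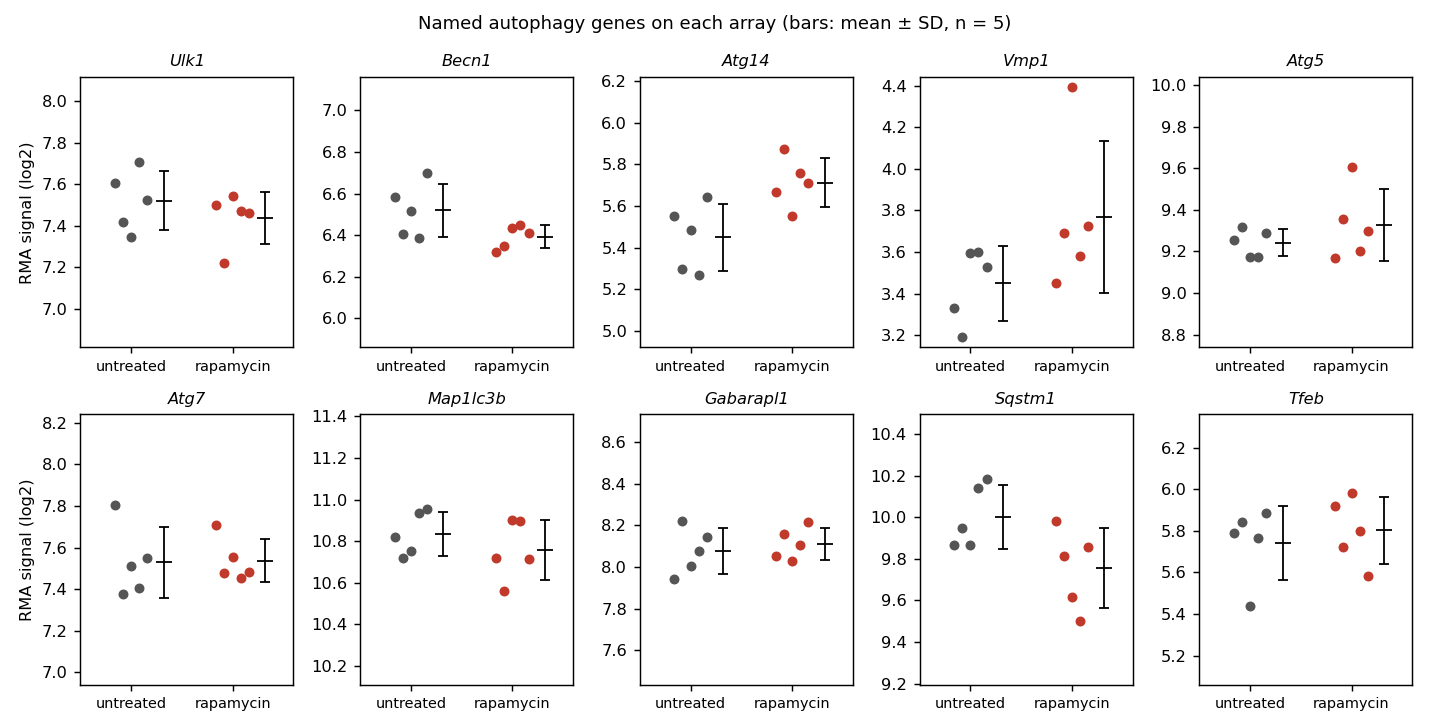
RMA signal (log2) of 10 autophagy genes on each array, with untreated mice in grey and rapamycin mice in red; bars show mean ± SD (n = 5), and each panel spans 1.3 log2 units. Atg14 and Vmp1 sit higher and Sqstm1 lower in rapamycin arrays, with the groups overlapping in each panel.

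The conjugation machinery attaches ATG8 proteins to the membrane lipid phosphatidylethanolamine. It was the largest role with 11 measured genes, and it had the flattest profile of the roles with more than 5 genes, with differences between -0.10 (Atg10) and 0.08 (Atg5), 5 positive, 6 negative and 0 called. Atg5, part of the enzyme complex that sets the site of conjugation, was at 9.25, 9.32, 9.17, 9.17 and 9.29 in untreated replicates 1 to 5, and at 9.17, 9.36, 9.61, 9.20 and 9.30 in rapamycin replicates 1 to 5. Rapamycin replicate 3 was the highest array and the others lay near the untreated ones. The Atg5 difference was 0.08 (SE 0.09, 95% interval from -0.10 to 0.27, adjusted p = 0.841 in limma).

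Atg7, the activating enzyme of both conjugation reactions, was at 7.80, 7.38, 7.51, 7.41 and 7.55 in untreated replicates 1 to 5. In rapamycin replicates 1 to 5 it was at 7.71, 7.48, 7.55, 7.46 and 7.48, all within the untreated range. The Atg7 difference was 0.01 (SE 0.10, 95% interval from -0.20 to 0.21, adjusted p = 0.991 in limma). The transfer enzymes had differences of -0.01 for Atg3 and -0.10 for Atg10, the ubiquitin-like Atg12 had 0.06, and Atg16l1 and Atg16l2, which bind the Atg12-Atg5 conjugate, had -0.07 and 0.01. The proteases that process ATG8 proteins had -0.08 for Atg4a, -0.07 for Atg4b, 0.06 for Atg4c and -0.01 for Atg4d.

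The ATG8 family proteins coat the membrane and bind cargo receptors. Their 5 genes had the narrowest set of intervals of the roles with more than 2 genes, with bounds from -0.28 to 0.21, and 0 were called. Map1lc3b, which encodes the LC3B used as the standard autophagosome marker, was at 10.82, 10.72, 10.75, 10.93 and 10.96 in untreated replicates 1 to 5, and at 10.72, 10.56, 10.90, 10.90 and 10.72 in rapamycin replicates 1 to 5. Rapamycin replicates 3 and 4 lay among the untreated values and replicate 2 was the lowest array. The Map1lc3b difference was -0.08 (SE 0.08, 95% interval from -0.24 to 0.08, adjusted p = 0.832 in limma).

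Gabarapl1, a GABARAP-type ATG8 gene, was at 7.94, 8.22, 8.01, 8.07 and 8.15 in untreated replicates 1 to 5. In rapamycin replicates 1 to 5 it was at 8.05, 8.16, 8.03, 8.11 and 8.22, all inside the untreated range. The Gabarapl1 difference was 0.03 (SE 0.08, adjusted p = 0.946 in limma). Differences were -0.02 for Map1lc3a and 0.05 for Gabarapl2. Gabarap was the only autophagy gene with 2 probe sets of exactly 1 gene symbol. They disagreed in sign, at -0.09 on the brighter and 0.16 on the dimmer one, and both intervals included zero. LC3 proteins are judged by their conversion to the lipid-bound form, which a transcript level does not show.

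Cargo receptors tie ubiquitinated or marked cargo to ATG8 proteins. Of 5 measured genes 0 were called, with 1 positive and 4 negative differences. Sqstm1, which encodes the ubiquitin-binding receptor p62, was at 9.87, 9.95, 9.86, 10.14 and 10.19 in untreated replicates 1 to 5, and at 9.98, 9.81, 9.62, 9.50 and 9.86 in rapamycin replicates 1 to 5. All 5 rapamycin values lay below the untreated mean, with replicates 3 and 4 the lowest and replicate 1 inside the untreated range. The Sqstm1 difference was -0.25 (SE 0.10, 95% interval from -0.45 to -0.04, adjusted p = 0.42 in limma). Without rapamycin replicate 4, an array that stood apart over all genes scoring 22.3 on the first principal component where its group otherwise reached at most 8.85, it was -0.18.

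Nbr1, a receptor related to p62, had a difference of -0.09 that rested on the same array, since without rapamycin replicate 4 it was 0.04. Calcoco1, a receptor for parts of the endoplasmic reticulum, had a difference of 0.19 with a wide spread of 9.08 ± 0.28 in untreated and 9.27 ± 0.28 in rapamycin arrays (SD, n = 5 each). Rapamycin replicate 4 was the lowest Calcoco1 array of its group, at 8.81. Without it the difference was 0.31, with an unadjusted p under 0.05. It was 0.11 without untreated replicate 2, 0.11 without rapamycin replicate 1 and 0.12 without untreated replicate 3. Tax1bp1, a receptor of ubiquitinated aggregates, had a difference of -0.0027, and Wdfy3, the large adaptor also called ALFY, had -0.08.

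Mitophagy genes, which mark or tether mitochondria for removal, had 3 measured members and 0 called. Bnip3, a receptor of the outer mitochondrial membrane, had a difference of 0.06 at a dim signal of 4.27 ± 0.04 and 4.34 ± 0.07 (SD, n = 5 each), below the array medians. Of its rapamycin values 4 lay above and 1 below the untreated range. Fundc1, a receptor gene on the X chromosome, had 0.14, and Pink1, the kinase that flags damaged mitochondria, had -0.08. Epg5, which tethers autophagosomes to lysosomes, had -0.07 with an interval from -0.28 to 0.15.

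The X-linked genes were also counted apart, since Xist and Y-linked transcripts differed between the groups. Wdr45, Fundc1, Tfe3 and Atg4a lie on the X chromosome, with differences of 0.17, 0.14, 0.08 and -0.08 and a median of 0.11. The other 41 measured members had a median of -0.02. None of the X-linked members was called, and a part of sex in these values was not tested.

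**Figure D4:**
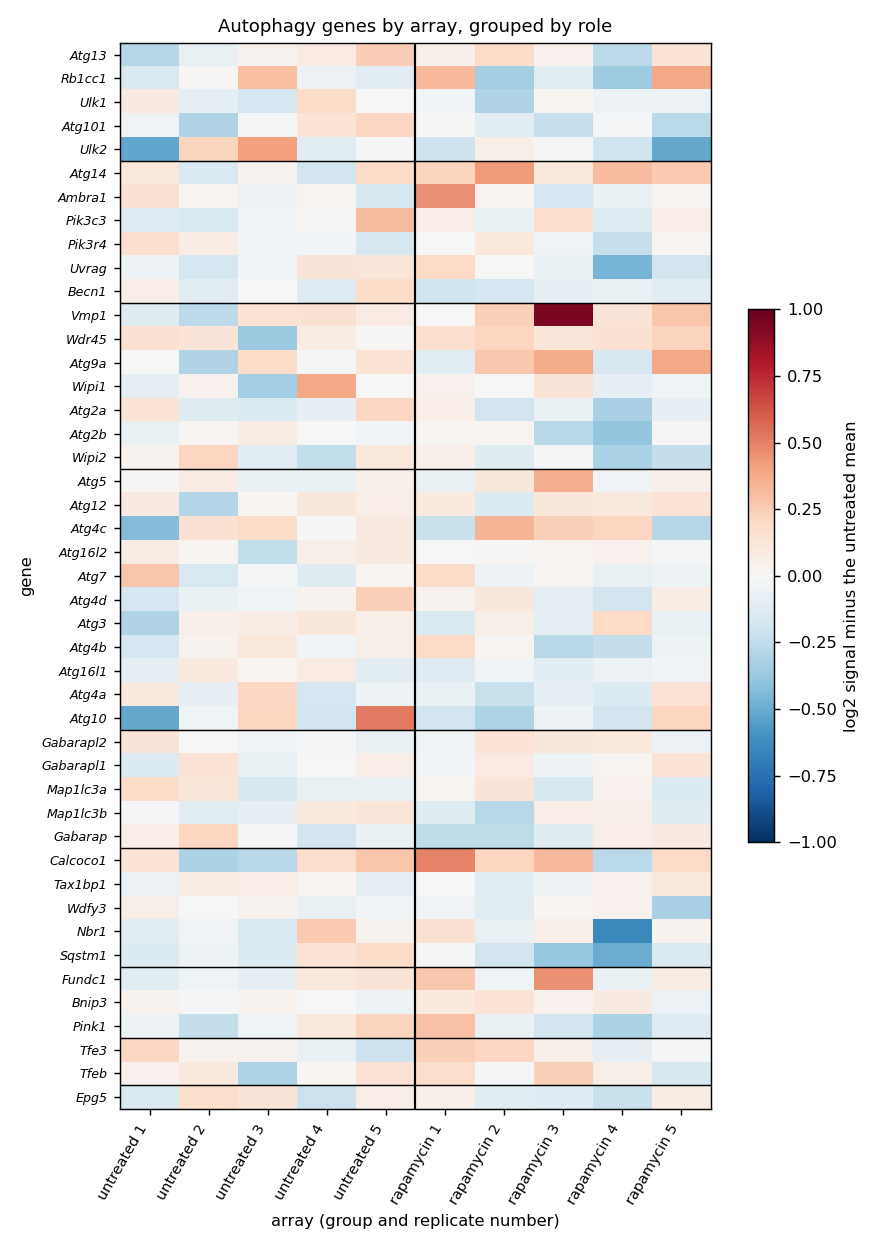
Log2 signal of the 45 autophagy genes on each of the 10 arrays, as the difference from the gene's untreated mean, with genes in rows grouped by role (lines) and arrays in columns. No block of a role has a single colour in the rapamycin columns; the deepest red cell is Vmp1 in rapamycin replicate 3 and blue cells of Nbr1, Sqstm1 and Uvrag stand in rapamycin replicate 4.

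Array by array, the autophagy genes lay close to the untreated level. Their median deviation from the untreated mean ran from -0.02 to 0.06 over untreated arrays and from -0.07 to 0.03 over rapamycin arrays. Rapamycin replicate 4 was the lowest, at -0.07, while over all genes its median deviation was 0.04, the highest of the 10 arrays. Without that array the median difference of the 45 genes was 0.02.

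A wider list of 49 pathway genes, which holds none of the members, was examined in the same fit. Of its 48 measured genes 0 were called, with a median difference of 0.02, and an unadjusted p under 0.05 was found for 3 positive and 3 negative differences, where the shares over all genes are 6.13% and 3.26%. The groups did not overlap for 3 of the 48, against 2.06% of all genes, and 2 of the 3 were receptors for the endoplasmic reticulum. Zkscan3, a zinc-finger repressor of autophagy and lysosome genes, was at 7.54, 7.39, 7.58, 7.50 and 7.79 in untreated replicates 1 to 5, and at 6.95, 7.21, 7.10, 7.09 and 7.54 in rapamycin replicates 1 to 5. Of the rapamycin values 4 lay below every untreated value and replicate 5 lay within the untreated range. The Zkscan3 difference was -0.38 (SE 0.11, 95% interval from -0.62 to -0.15, adjusted p = 0.218 in limma). Tmem41b, a lipid scramblase that works with Vmp1, had -0.25 with overlapping groups (adjusted p = 0.411 in limma).

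Fusion genes gave 2 of the positive differences. Vamp8, a SNARE of autophagosome and lysosome fusion, was at 10.26, 10.21, 10.13, 10.34 and 10.10 in untreated replicates 1 to 5, and at 10.37, 10.37, 10.50, 10.55 and 10.34 in rapamycin replicates 1 to 5. The groups did not overlap for Vamp8, as for 1.48% of all genes in this direction, and the gap between them was narrow. The Vamp8 difference was 0.22 (SE 0.07, adjusted p = 0.27 in limma). Tecpr1, a lysosomal tether, had 0.31 (adjusted p = 0.348 in limma), with rapamycin replicate 4 at 6.51, inside the untreated range.

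Receptors for fragments of the endoplasmic reticulum, the organelle that fills a plasma cell, gave 7 measured genes with 0 called, 3 positive and 4 negative differences. Ccpg1 was at 9.20, 9.55, 9.54, 9.61 and 9.52 in untreated replicates 1 to 5, and at 9.81, 9.87, 9.63, 9.64 and 9.67 in rapamycin replicates 1 to 5. The groups did not overlap for Ccpg1, by a narrow margin, as for 1.48% of all genes in this direction. The Ccpg1 difference was 0.24 (SE 0.09, adjusted p = 0.361 in limma). Rtn3 was at 10.67, 10.66, 10.75, 10.72 and 10.63 in untreated replicates 1 to 5, and at 10.50, 10.53, 10.56, 10.28 and 10.61 in rapamycin replicates 1 to 5. Its groups did not overlap either, as for 0.586% of all genes in this direction, and the Rtn3 difference was -0.19 (SE 0.07, adjusted p = 0.361 in limma). Retreg1, also called FAM134B, had 0.01 and Sec62 had -0.01.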

How the data were processed

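Per the submitters' processing notes, the authors used RMA (background correction, quantile normalization between arrays, probe summary) to make the deposited log2 values. Its version was not given in the sources used here. Quantile normalization hides a shift shared by all transcripts. The whole table of 41345 rows was tested as deposited, and a filtered table of 12280 rows with the same values was an alternative. Symbols came from the platform annotation, which gave 1 symbol for 23521 probe sets, and several for 1820.

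Groups came from the sample titles, and each array is 1 mouse per the design text. Genes were compared with limma 3.58.1 in R 4.3.3 (lmFit, eBayes with an intensity trend), two-sided, without covariates or a filter, and adjusted over all 22180 genes. Arrays carry no depth, and their number limits the precision. The fit was tested on simulated data with independent noise and added differences larger than any found for an autophagy gene. That test does not cover differences of the size found here, or an array that stands apart. Members and lists were chosen with earlier results of these data known. Array values are given for members with an unadjusted p under 0.05, members without overlap, and 9 fixed members (Ulk1, Becn1, Atg5, Atg7, Map1lc3b, Gabarapl1, Sqstm1, Tfeb, Vmp1). Other pathway genes were named at an unadjusted p under 0.05. Retreg1 and Sec62, and the promoter motifs, were chosen after values were seen. Alternatives covered the variance model, array weights, a replicate block, probe sets, filters, tables, centring, X and Y genes, the threshold and each array. Figures used matplotlib 3.10.9.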

Additional observations from a re-analysis of the deposited data

Results flagged for a closer look

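In each group of 5 arrays, the highest or lowest value of each autophagy gene was set against its nearest neighbour, as a share of the group's whole range, and a share above 0.71 was marked. Of 90 groups, 9 were marked. The threshold is set to mark about 1 in 20 groups of normally distributed values, and the share marked over all genes was not computed. All 9 were low values. Atg3 in untreated replicate 1, at 7.97, had a share of 0.846, and Atg4c in the same array, at 5.20, had 0.717. Atg12 was lowest in untreated replicate 2 (share 0.765) and in rapamycin replicate 2 (share 0.833). In untreated replicate 3, Wdr45 had a share of 0.742, Atg16l2 of 0.808 and Tfeb of 0.729. Ulk1 in rapamycin replicate 2, at 7.22, had 0.747, and Nbr1 in rapamycin replicate 4, at 7.81, had 0.722.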

How the results depend on the processing

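No autophagy gene was called in any of 19 alternative fits, or at an adjusted p under 0.1, and the smallest adjusted p of any of them was 0.255, for Atg14. The filtered table holds 23 of the measured members, and their median difference there was -0.069, against -0.011 over all 45. Without single arrays the median ran from -0.05 (without untreated replicate 1) to 0.02. Among the 45 members, 27 kept the sign of their difference in every alternative that measured them. Without single arrays, differences crossed zero with ranges of Atg13 from -0.040 to 0.11, Rb1cc1 from -0.12 to 0.063, Pik3c3 from -0.016 to 0.10, Pik3r4 from -0.070 to 0.022, Ambra1 from -0.049 to 0.11, Wipi1 from -0.078 to 0.10, Atg3 from -0.087 to 0.021, Atg4c from -0.053 to 0.14, Atg4d from -0.053 to 0.049, Atg7 from -0.036 to 0.076, Atg10 from -0.23 to 0.025, Atg12 from -0.011 to 0.11, Atg16l2 from -0.048 to 0.038, Map1lc3a from -0.060 to 0.025, Nbr1 from -0.15 to 0.043, Tax1bp1 from -0.030 to 0.025 and Tfeb from -0.018 to 0.11. Atg4d was 0.011 with array weights, and Gabarap was 0.033 as the mean of its probe sets. The unadjusted p of Sqstm1 exceeded 0.05 when untreated replicate 4, untreated replicate 5, rapamycin replicate 3 or rapamycin replicate 4 was left out. That of Vmp1 did so when untreated replicate 1, untreated replicate 2, rapamycin replicate 3 or rapamycin replicate 5 was left out. In the other direction, the unadjusted p fell under 0.05 for Ulk2 and Wdr45 without untreated replicate 1, and for Calcoco1 without rapamycin replicate 4.

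Over all genes, 28 were called higher and 6 lower. Higher calls numbered 57 and lower calls 13 among genes above the median of gene means, 71 and 36 in the filtered table, where fewer genes were tested, and 68 and 24 at an adjusted p under 0.1. Array weights gave 12 lower calls, and leaving out X and Y genes gave 3. Without single arrays, higher calls ran from 15 (without untreated replicate 3, and also without rapamycin replicate 1) to 30, and lower calls from 4 to 9. The sample titles do not say what same-numbered arrays of the groups share. Correlations of their deviations ran from -0.07 to 0.05, and 1 of 5 untreated arrays correlated best with its own number. With 5 arrays per group, these values cannot show whether the arrays were paired. With the replicate block 14 genes were called higher, and no autophagy gene was called. The cause of these shifts was not tested.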
